A study of Homo sapiens
Mus musculus with 16 samples.

Results

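The 37 genes described here encode the machinery of mitosis, from MKI67 (ENSG00000148773), TOP2A (ENSG00000131747) and CDK1 (ENSG00000170312) to the spindle motors and the cytokinesis factors, and were read in the tumour cells of MDA-MB-231 xenografts. They were listed by name and identifier as mitotic genes, without a rule on their values, but with earlier results of these data known. They are 37 of the 58051 gene rows of the human count matrix. All 37 were found in that matrix and all 37 passed the filter on low counts. MDA-MB-231 is a human triple-negative breast cancer line. The cells were implanted in the mammary fat pads of nude mice (Balb/c), which lack a thymus and so T cells but keep other immune cells, and each tumour was excised on day 50. Each tumour gave 1 mRNA library. There were 16 tumours in 4 groups of 4 mice. Vehicle mice received vehicle injections only. Nab-paclitaxel mice received nab-paclitaxel at 30 mg/kg on days 15, 22 and 29. Phenelzine mice received phenelzine at 40 mg/kg daily from day 15, and combination mice received both drugs at those doses and times. All injections were intraperitoneal. Every group thus carries the same human line, and the last dose of nab-paclitaxel was given on day 29 while all tumours were taken on day 50.

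Cells enter mitosis when CDK1, bound to cyclin A or cyclin B, becomes active, and they leave it when the anaphase-promoting complex destroys the cyclins. Most of the genes here are transcribed in the G2 and M phases of the cell cycle, with FOXM1 among the factors that drive them, and are repressed in cells that do not divide. For this reason their RNA is widely used as a measure of how many cells of a tumour are dividing. Paclitaxel, the active part of nab-paclitaxel, stabilises microtubules, so that the spindle cannot work normally and cells are held in mitosis. Phenelzine inhibits monoamine oxidases and is also known to inhibit the histone demethylase LSD1.

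Levels are given as CPM, counts scaled to a common library size of human counts with TMM, a factor that corrects for differences in composition between libraries. Libraries are named by group and mouse number. Human totals were 11.1 to 34.5 M counts and the mouse share of all counts, a measure of host RNA in a tumour, was 9.25% to 71.2%. Across all human genes, the first principal component (48.7% of the variance) set apart nab-paclitaxel 1 and 4 and combination 1 and 3, with scores of 72.7 to 125 against -56.6 to 5.37 in the other 12 libraries. The mitotic genes were part of the data behind that component. These 4 libraries are called the libraries that stood apart, and the comparisons below are given with and without them. Human depth was also lowest in 3 of them, at 15.4 M in nab-paclitaxel 1, 11.1 M in combination 1 and 15.996 M in combination 3. No member had fewer than 10 counts in any library and 33 had at least 100 in every library. In bulk tumours, fewer dividing cells and less RNA of these genes per cell cannot be told apart. Defining markers of the line and of host cells were not analysed here, because the matrices hold gene identifiers only.

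All 37 genes were lowest in the same 3 tumours, and each of the 4 tumours lowest in their summed level had received nab-paclitaxel. In nab-paclitaxel 1, combination 1 and combination 3 the median member stood at 27.5%, 19.6% and 28.8% of its vehicle level (the geometric mean of the 4 vehicle libraries). In nab-paclitaxel 4 it stood at 66.8%. The other 4 tumours with nab-paclitaxel were near vehicle, at 107% in nab-paclitaxel 2, 97.4% in nab-paclitaxel 3, 94.0% in combination 2 and 85.2% in combination 4. Vehicle tumours ran from 88.4% to 114% and phenelzine tumours from 88.8% to 126%. In terms of raw counts, the 37 genes held 0.427% to 0.571% of human counts in vehicle tumours and 0.449% to 0.616% with phenelzine. They held 0.155%, 0.528%, 0.492% and 0.350% in nab-paclitaxel 1 to 4 and 0.103%, 0.442%, 0.160% and 0.409% in combination 1 to 4.

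**Figure D1:**
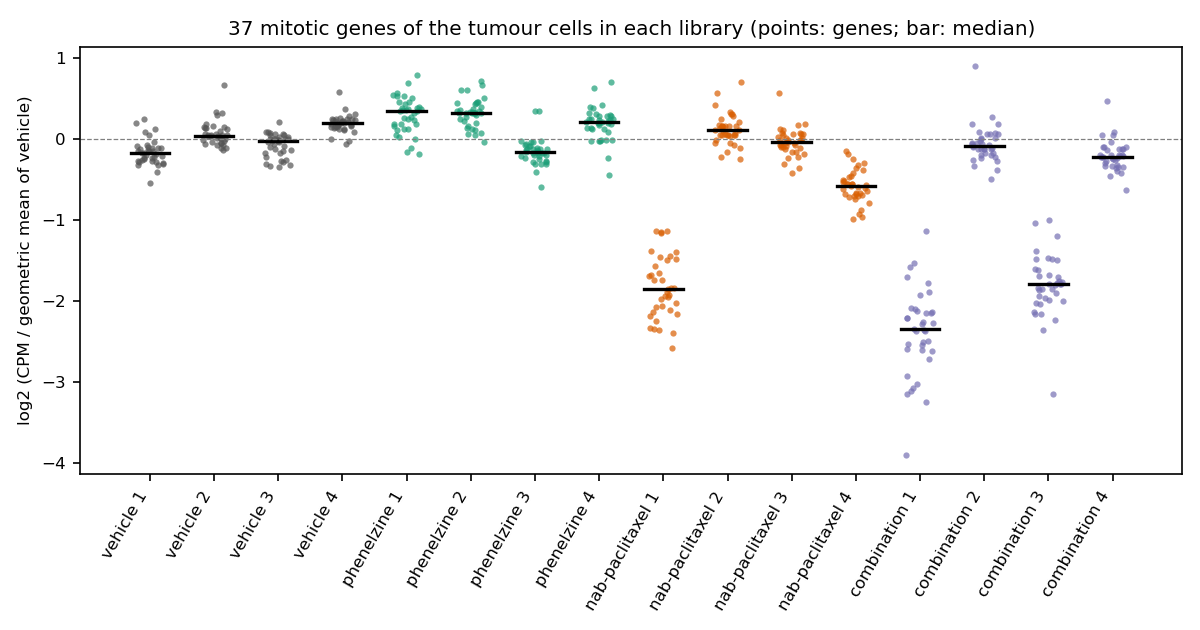
Level of each of the 37 mitotic genes in each library, as log2 of its CPM over the geometric mean of the 4 vehicle libraries (vertical axis), for the 16 libraries (horizontal axis, coloured by group). Points are genes and bars are medians. In nab-paclitaxel 1, combination 1 and combination 3 all 37 points lie below 0, with medians of -1.86, -2.35 and -1.80.

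The same 3 libraries, nab-paclitaxel 1, combination 1 and combination 3, were the 3 lowest of the 16 in each of the 37 genes, against 14% of all genes tested. In all 37 genes these 3 libraries also lay below every one of the 8 libraries without nab-paclitaxel, which held for 20.6% of all genes. Combination 1 was the lowest library for 34 members, nab-paclitaxel 1 for 2 and combination 3 for 1. Nab-paclitaxel 4 was the next lowest library in 33 members, and in 34 it lay between those 3 libraries and the 8 libraries without nab-paclitaxel. The 4 exceptions to that place were PLK1 and CDC25C, where phenelzine 3 was lower, KIF4A, where combination 2 was lower, and FOXM1, where vehicle 3 was lower. In single tumours, the number of members under the lowest of the 8 libraries without nab-paclitaxel was 37 in nab-paclitaxel 1 (31.5% of all genes), 37 in combination 1 (32.1%), 37 in combination 3 (31.3%) and 34 in nab-paclitaxel 4 (23.5%). It was 0 in nab-paclitaxel 2 (12.8%), 6 in nab-paclitaxel 3 (13.9%), 6 in combination 2 (16.9%) and 11 in combination 4 (14.3%). These are descriptions of single libraries and carry no test.

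The mouse share moved with these levels. It was 59.7% in nab-paclitaxel 1, 71.2% in combination 1, 55.9% in combination 3 and 41.9% in nab-paclitaxel 4. In the tumours with near-vehicle levels it was 23.4% in nab-paclitaxel 2, 21.0% in nab-paclitaxel 3, 18.6% in combination 4 and 47.4% in combination 2. Combination 2 thus had a higher mouse share than nab-paclitaxel 4 but a higher level of the mitotic genes, 0.442% against 0.350% of human counts. Vehicle 2, with a mouse share of 37.8%, held 0.490%. The part of the host share in the level of the mitotic genes was not tested, beyond the fit with the share as a covariate given with the comparisons.

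**Figure D2:**
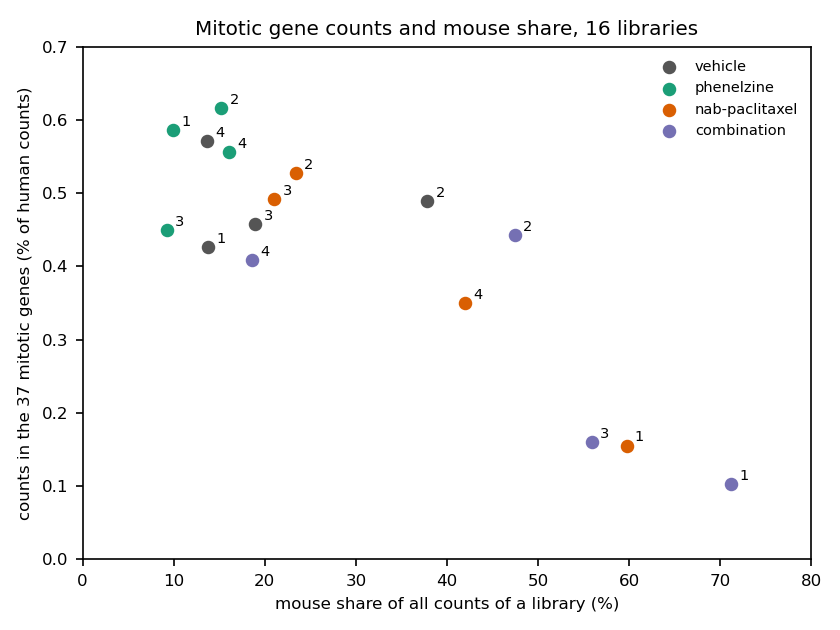
Counts in the 37 mitotic genes as a percentage of human counts (vertical axis) against the mouse share of all counts of the library in percent (horizontal axis), 1 point per library, coloured by group and numbered by mouse. The 3 libraries under 0.2% have mouse shares of 55.9% to 71.2%, while combination 2 stands at 0.442% with a mouse share of 47.4%.

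The genes of mitotic entry are the cyclins CCNA2, CCNB1 and CCNB2, their kinase CDK1, the phosphatase CDC25C that activates it, and the transcription factor FOXM1. CCNB1, cyclin B1, stood at 94.2, 115, 87.2 and 114 CPM in vehicle 1 to 4 and at 111, 127, 81.7 and 110.4 CPM with phenelzine. CCNB1 values with nab-paclitaxel were 36.2, 112, 106 and 74.1 CPM and with the combination 20.9, 92.9, 33.1 and 87.7 CPM. Nab-paclitaxel 1 and combination 1 and 3 were lowest, nab-paclitaxel 4 lay between them and vehicle, and the other 4 lay within the vehicle range. CDK1 stood at 96.8, 95.2, 108 and 122 CPM in vehicle tumours and at 138, 143, 90.3 and 136 CPM with phenelzine. CDK1 values were 24.3, 108, 99.3 and 60.5 CPM with nab-paclitaxel and 22.6, 110.0, 26.4 and 95.6 CPM with the combination. In combination 2 CDK1 lay within the vehicle range, while combination 1 and 3 stood at 21.5% and 25.2% of vehicle. FOXM1 stood at 148, 144, 111 and 159.6 CPM with vehicle and 168, 211, 121 and 214 CPM with phenelzine. FOXM1 values were 51.2, 156, 137 and 122 CPM with nab-paclitaxel and 42.4, 145, 40.3 and 143 CPM with the combination. In nab-paclitaxel 4 FOXM1 lay within the vehicle range, unlike most members, and in the 3 lowest tumours it stood at 36.8%, 30.5% and 28.9% of vehicle. CDC25C, a gene of low level at 15.2 ± 3.97 CPM (SD, n = 4) in vehicle tumours, stood at 10.5% of vehicle in combination 1 from 17 counts.

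The mitotic kinases include PLK1, which acts at centrosomes and kinetochores, AURKA, which with its activator TPX2 builds the spindle, NEK2, and AURKB, which corrects faulty attachments together with BIRC5 (survivin). PLK1 stood at 90.2, 82.2, 84.5 and 92.0 CPM with vehicle and 80.5, 89.9, 77.2 and 102 CPM with phenelzine. PLK1 values were 26.0, 109, 87.2 and 78.1 CPM with nab-paclitaxel and 10.7, 86.7, 27.0 and 84.6 CPM with the combination. Nab-paclitaxel 1 and combination 1 and 3 were far below the other 13 libraries. Nab-paclitaxel 2 was the highest PLK1 value of the 16, and nab-paclitaxel 4, at 89.7% of vehicle, was the least reduced value of any member in that tumour. AURKB stood at 66.4, 74.6, 74.3 and 78.7 CPM with vehicle and 87.3, 91.7, 71.5 and 97.7 CPM with phenelzine. AURKB values were 17.3, 69.5, 62.5 and 49.6 CPM with nab-paclitaxel and 15.7, 88.1, 20.1 and 75.4 CPM with the combination. AURKB in combination 2 lay above all 4 vehicle values, while combination 1 and 3 lay below them.

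BIRC5, which also blocks cell death, differed in pattern from most members. It stood at 38.5, 89.3, 53.0 and 55.3 CPM with vehicle and 96.7, 60.6, 42.5 and 47.9 CPM with phenelzine. BIRC5 values were 11.8, 83.1, 83.0 and 30.7 CPM with nab-paclitaxel and 15.2, 104, 20.1 and 77.4 CPM with the combination. The 3 tumours low in the other members were low in BIRC5 too, at 21.0%, 27.0% and 35.8% of vehicle. The 4 tumours with nab-paclitaxel that were near vehicle in the other members stood above the vehicle level, at 147%, 147%, 185% and 137%. Vehicle 2 and phenelzine 1 were high in BIRC5 as well, above nab-paclitaxel 2 and 3 and combination 4, and combination 2 was the highest of the 16.

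The spindle assembly checkpoint (BUB1, BUB1B, TTK and MAD2L1) holds cells in mitosis until every chromosome is attached, which is the state that paclitaxel prolongs. CDC20 and UBE2C then work with the anaphase-promoting complex, and PTTG1 (securin) is one of its substrates. BUB1B stood at 58.7, 64.3, 66.0 and 81.0 CPM with vehicle and 86.4, 91.1, 62.6 and 79.3 CPM with phenelzine. BUB1B values were 14.6, 81.1, 63.2 and 44.4 CPM with nab-paclitaxel and 12.9, 70.0, 19.5 and 62.1 CPM with the combination. It followed the common pattern, with 3 very low tumours and nab-paclitaxel 4 in between. CDC20 stood at 112, 99.8, 87.8 and 93.2 CPM with vehicle and 106, 122, 89.1 and 118 CPM with phenelzine. CDC20 values were 37.4, 94.3, 87.5 and 66.5 CPM with nab-paclitaxel and 25.6, 82.8, 37.4 and 89.0 CPM with the combination. The low tumours kept more CDC20 than the median member, at 38.3%, 26.2% and 38.3% of vehicle. PTTG1 stood at 213, 206, 218 and 238 CPM with vehicle and 196, 228, 179 and 216 CPM with phenelzine. PTTG1 values were 43.2, 211, 185 and 109.5 CPM with nab-paclitaxel and 35.8, 209, 42.5 and 186 CPM with the combination. Nab-paclitaxel 4, at 50.1% of vehicle, was lower in PTTG1 than in any other member. MAD2L1 stood at 38.4, 44.6, 55.6 and 56.4 CPM with vehicle and 54.4, 50.5, 61.1 and 47.5 CPM with phenelzine. MAD2L1 values were 21.8, 78.1, 45.6 and 32.1 CPM with nab-paclitaxel and 11.2, 54.7, 23.4 and 42.0 CPM with the combination. MAD2L1 ran from 162% of vehicle in nab-paclitaxel 2, the highest of the 16, to 23.4% in combination 1.

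Among the chromosome and kinetochore genes, MKI67 (Ki-67), which coats mitotic chromosomes and is the usual pathology marker of dividing cells, lies on chromosome 10 from 128096659 to 128126423 in RefSeq's GRCh38.p14. It stood at 309.7, 316, 276 and 511 CPM with vehicle and 444, 485, 436 and 251.9 CPM with phenelzine. MKI67 values were 94.3, 422, 358 and 175 CPM with nab-paclitaxel and 70.2, 270.3, 91.8 and 221 CPM with the combination. All 4 combination values lay below all 4 vehicle values, and those with nab-paclitaxel alone did not separate from vehicle. TOP2A, topoisomerase II alpha, which untangles chromosomes, stood at 318, 409, 381 and 435 CPM with vehicle and 526, 519, 331 and 453 CPM with phenelzine. TOP2A values were 107, 411, 394 and 285 CPM with nab-paclitaxel and 86.0, 351, 113 and 324 CPM with the combination. Combination 2 and 4 lay within the vehicle range of TOP2A, so the groups overlapped. CENPF, a kinetochore protein, stood at 185, 248.4, 218 and 249.3 CPM with vehicle and 305, 275, 198 and 253.9 CPM with phenelzine. CENPF values were 81.3, 229, 207 and 160.5 CPM with nab-paclitaxel and 51.9, 194, 79.6 and 190.4 CPM with the combination. Its low tumours were again those 3, with nab-paclitaxel 4 at 71.7% of vehicle. CENPA, the histone H3 variant that marks centromeres, was singled out after its values were seen. It stood at 25.9, 30.3, 23.0 and 31.9 CPM with vehicle and 35.02, 26.8, 25.5 and 26.9 CPM with phenelzine. CENPA values were 4.58, 23.1, 21.4 and 16.8 CPM with nab-paclitaxel and 1.83, 26.4, 3.08 and 29.2 CPM with the combination. Combination 1 and 3 held 6.68% and 11.2% of the vehicle level from 20 and 55 counts, and combination 2 and 4 lay within the vehicle range. The histone variant was the most reduced member in nab-paclitaxel 1, combination 1 and combination 3 alike.

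The spindle genes comprise the motors KIF11 (Eg5), which separates the poles, KIF4A, which moves on chromosomes, and KIF2C, which shortens microtubule ends, and the spindle proteins NUSAP1, HMMR, DLGAP5 and ASPM. KIF11 stood at 101, 127, 132 and 143 CPM with vehicle and 145, 157, 103 and 144 CPM with phenelzine. KIF11 values were 37.2, 138, 115 and 81.0 CPM with nab-paclitaxel and 16.4, 129, 30.2 and 97.2 CPM with the combination. It followed the common pattern, and combination 1 kept 13.2% of vehicle. ASPM stood at 73.9, 109, 69.4 and 103 CPM with vehicle and 140.1, 131, 84.9 and 99.6 CPM with phenelzine. ASPM values were 29.1, 89.3, 93.7 and 45.7 CPM with nab-paclitaxel and 16.9, 84.9, 23.9 and 63.3 CPM with the combination. Phenelzine 1 and 2 held the highest ASPM values, and combination 4 and nab-paclitaxel 4 lay below all vehicle tumours along with the 3 lowest. KIF4A (ENSG00000090889) lies on chromosome X from 70290104 to 70420886 in RefSeq's GRCh38.p14 and has a near-identical intronless copy, KIF4B, with which reads could be shared. It stood at 52.0, 73.8, 48.2 and 64.7 CPM with vehicle and 66.8, 96.3, 52.2 and 95.2 CPM with phenelzine. KIF4A values were 21.0, 58.1, 61.3 and 47.7 CPM with nab-paclitaxel and 19.6, 45.0, 20.9 and 51.3 CPM with the combination. KIF4A was less reduced than most members in the low tumours, at 35.7%, 33.3% and 35.5% of vehicle. All 4 combination values lay below all 4 phenelzine values.

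Cytokinesis, the final cleavage of the cell, is represented by the motors KIF20A and KIF23, the bundling protein PRC1, anillin (ANLN), and ECT2 and RACGAP1, which switch on the contractile ring. KIF20A stood at 101, 122, 124 and 134 CPM with vehicle and 104, 149, 101 and 118 CPM with phenelzine. KIF20A values were 30.3, 132, 120.0 and 82.7 CPM with nab-paclitaxel and 13.7, 99.6, 33.1 and 103 CPM with the combination. Combination 1, at 11.5% of vehicle, was far below combination 3, at 27.8%. ANLN stood at 338, 394, 391 and 459.6 CPM with vehicle and 566, 457, 359 and 432 CPM with phenelzine. ANLN values were 74.7, 443, 361 and 247.7 CPM with nab-paclitaxel and 63.8, 375, 83.4 and 323 CPM with the combination. The 3 low tumours kept 19.0%, 16.2% and 21.2% of vehicle. ECT2 stood at 142, 165, 160.2 and 176 CPM with vehicle and 216, 175, 154 and 157 CPM with phenelzine. ECT2 values were 72.1, 178, 158 and 135 CPM with nab-paclitaxel and 72.7, 161, 79.8 and 145 CPM with the combination. In combination 1 and combination 3 ECT2 was the least lowered member, at 45.4% and 49.8% of vehicle, and in nab-paclitaxel 1, at 45.0%, it stood just under MAD2L1 and RACGAP1. RACGAP1, named after its values were seen, stood at 34.5%, 43.3% and 45.2% of vehicle in combination 1, combination 3 and nab-paclitaxel 1.

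**Figure D3:**
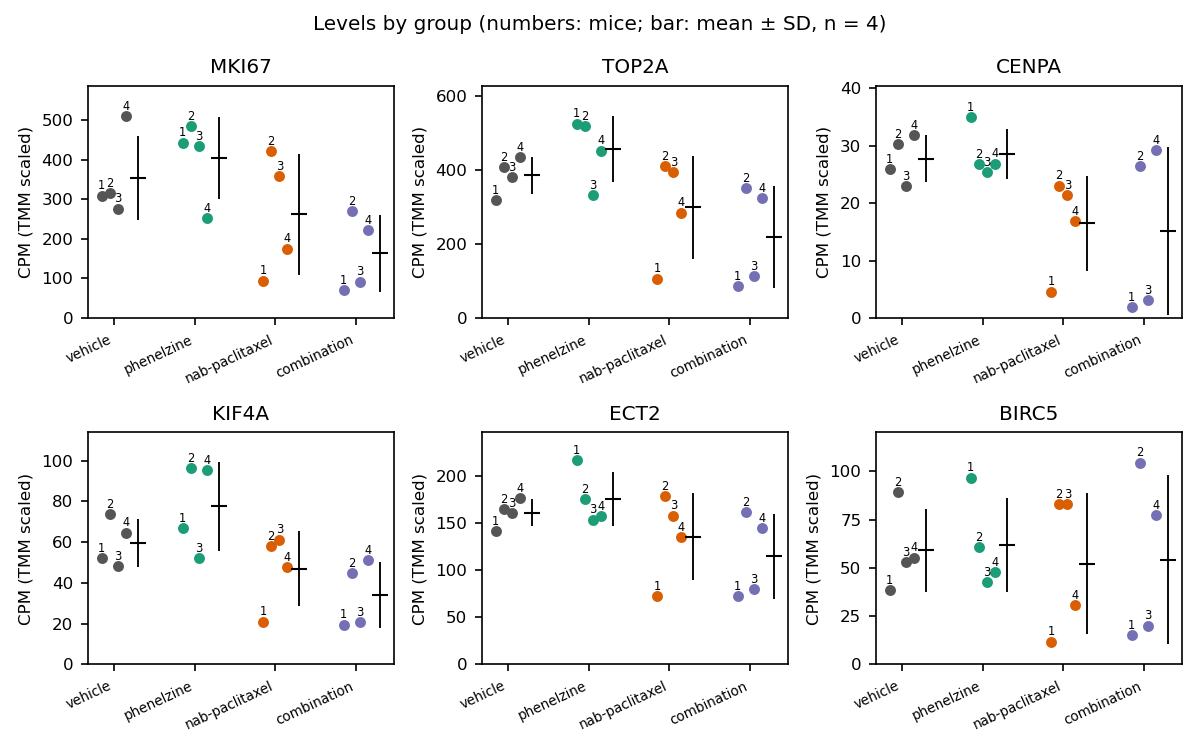
CPM of 6 mitotic genes (vertical axes, starting at 0) by group (horizontal axis), with 1 point per library numbered by mouse and bars for the mean ± SD (n = 4). Nab-paclitaxel 1 and combination 1 and 3 are low in all 6, CENPA is 1.83 CPM in combination 1, the lowest ECT2 value is 72.1 CPM, and BIRC5 is highest in combination 2 at 104 CPM.

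The other 17 members (CCNA2, CCNB2, CDC25C, AURKA, NEK2, TPX2, BUB1, TTK, UBE2C, CENPE, KIF2C, NUSAP1, HMMR, DLGAP5, KIF23, PRC1 and RACGAP1) also had nab-paclitaxel 1 and combination 1 and 3 as their 3 lowest libraries. They ran from 19.4% (CENPE) to 45.2% (RACGAP1) of vehicle in nab-paclitaxel 1, and from 59.8% (UBE2C) to 79.7% (RACGAP1) in nab-paclitaxel 4. In combination 1 they ran from 10.5% (CDC25C) to 34.5% (RACGAP1), and in combination 3 from 22.3% (CDC25C) to 43.3% (RACGAP1). RACGAP1 was thus the least lowered of these 17 in all 4 tumours. In combination 2 they ran from 70.8% (KIF2C) to 113% (HMMR) and in combination 4 from 74.8% (CENPE) to 92.9% (RACGAP1).

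By role, the medians lay close together. In combination 1 the median of the spindle genes was 16.5% of vehicle, of the entry genes 18.8%, of the checkpoint and anaphase-promoting complex genes 19.3%, of the chromosome genes 20.5%, of the kinase group 22.1% and of the cytokinesis genes 23.6%. In nab-paclitaxel 1 these medians ran from 26.8% (spindle) to 31.2% (cytokinesis), in combination 3 from 25.7% (entry) to 32.0% (cytokinesis) and in nab-paclitaxel 4 from 62.1% (spindle) to 70.2% (entry). The order of the roles was not tested.

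**Figure D4:**
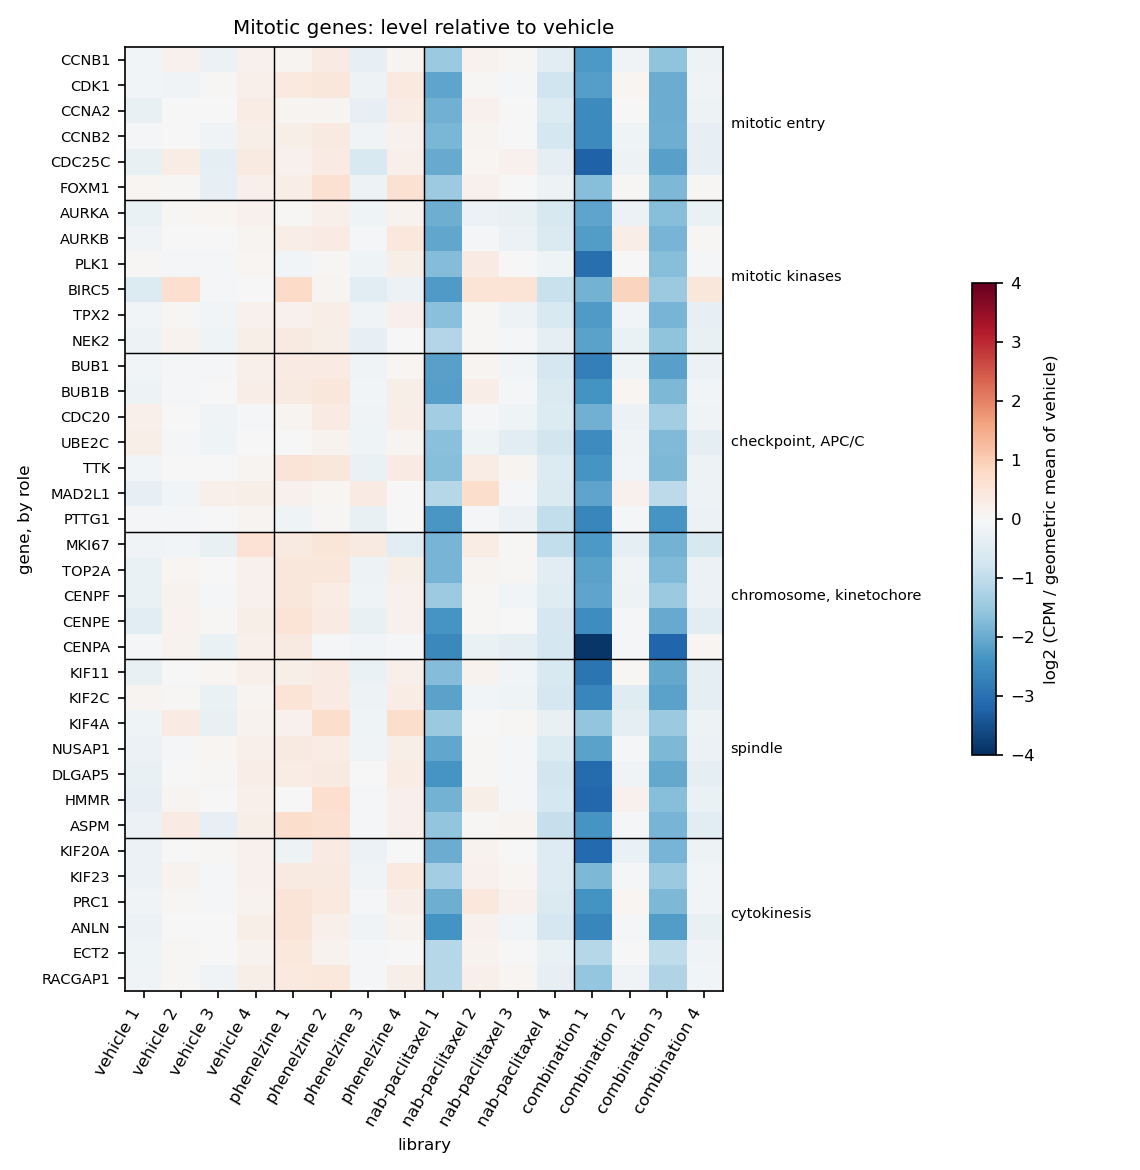
Level of the 37 mitotic genes (rows, by role) in the 16 libraries (columns, by group) as log2 of CPM over the geometric mean of vehicle, blue lower and red higher. The columns of nab-paclitaxel 1, combination 1 and combination 3 are blue in all 37 rows, nab-paclitaxel 4 is paler, and BIRC5 is the row with most red among tumours with nab-paclitaxel.

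The spread of the mitotic genes within a group was far wider in the groups with nab-paclitaxel. The median SD of log2 CPM over the 37 genes was 0.195 with vehicle, 0.259 with phenelzine, 0.919 with nab-paclitaxel and 1.14 with the combination (n = 4 libraries each). Over all genes tested it was 0.242, 0.256, 0.3603 and 0.440. The SD was larger with nab-paclitaxel than with vehicle in 37 of 37 members, and larger with the combination than with phenelzine in 37 of 37. The tests below use 1 estimate of spread per gene, shared by all groups in the fit, and not the spread of each group. The wide spread with nab-paclitaxel thus also enters the SE of phenelzine against vehicle. PLK1 had an SE of 0.496 there, with SDs of log2 CPM of 0.0767 with vehicle and 0.181 with phenelzine.

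To see whether nab-paclitaxel lowered the mitotic genes on average, the 8 libraries with it were set against the 8 without it in a model of all 4 groups (edgeR quasi-likelihood test, adjusted over all 18131 human genes). All 37 members had a lower mean with the drug, with a median log2 fold change of -0.71, against -0.01 over all genes tested, a median that TMM scaling itself holds near 0. KIF4A fell, and it was the only one of the 37 to pass the threshold of 0.05; of all genes tested, 6.07% passed it and fell, and 17.3% passed in either direction. The share of members called is below that background, so the count is no result about the mitotic genes. KIF4A had a log2 difference of -0.76 with an SE of 0.251 (adjusted p = 0.0491 in edgeR). The call was close to the threshold: it held with 1 library left out for 5 of the 16 libraries (nab-paclitaxel 2 and 3, phenelzine 3, combination 2 and 4). It was lost without any 1 of the other 11 (vehicle 1 to 4, nab-paclitaxel 1 and 4, phenelzine 1, 2 and 4, combination 1 and 3), where edgeR gave adjusted p-values of 0.0586 to 0.101 and log2 differences between -0.80 and -0.63. KIF2C had the largest difference, -0.97 with an SE of 0.324 (adjusted p = 0.052 in edgeR). The values of MKI67 were -0.87 with an SE of 0.328 (adjusted p = 0.078 in edgeR), of TOP2A -0.71 with an SE of 0.305 (adjusted p = 0.111 in edgeR) and of CDK1 -0.76 with an SE of 0.34 (adjusted p = 0.127 in edgeR). BIRC5 had the smallest difference, -0.18 with an SE of 0.436 (adjusted p = 0.796 in edgeR), followed by MAD2L1 at -0.41 and ECT2 at -0.43. At an unadjusted p under 0.05 there were 21 of 37 members, against 34.8% of all genes. That count was 10 without combination 3 (28.3% of all genes) or vehicle 4 (31.6%), 11 without nab-paclitaxel 4 (29.7%) or phenelzine 2 (31.5%), and 12 without combination 1 (30.1%). It was 33 without combination 2 (40.8%) and 32 without combination 4 (36.9%). No member separated the 8 libraries with the drug from the 8 without, against 0.772% of all genes lower without overlap.

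The count of members called depended on the tool and on single libraries. DESeq2 called 9 (MKI67, AURKA, TPX2, CENPF, KIF2C, KIF4A, CDC20, UBE2C and ASPM), all lower (8.96% of all genes fell in DESeq2), and voom with quality weights 0. Of the 18131 genes tested, voom called 963 lower and 1327 higher. Without combination 2, a tumour near vehicle, edgeR called 15 (9.81% of all genes fell), without combination 4 it called 7 (6.82%), without nab-paclitaxel 2 it called 6 (8.28%) and without nab-paclitaxel 3 it called 2 (5.84%). It called 0 without any 1 of the 11 libraries named above. Without the 4 libraries that stood apart 0 members passed (0.608% of all genes fell), with 5 at an unadjusted p under 0.05 (16.2% of all genes), and the median log2 fold change was -0.16, with 34 of 37 members negative. With the mouse share as a covariate 0 passed (0.0276% of all genes fell), with 0 at an unadjusted p under 0.05 (9.73% of all genes), and the median was -0.01, with 19 of 37 negative. The mouse share was 18.6% to 71.2% in the groups with nab-paclitaxel and 9.25% to 37.8% in those without, so its part and that of the drug cannot be told apart in that fit.

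**Figure D5:**
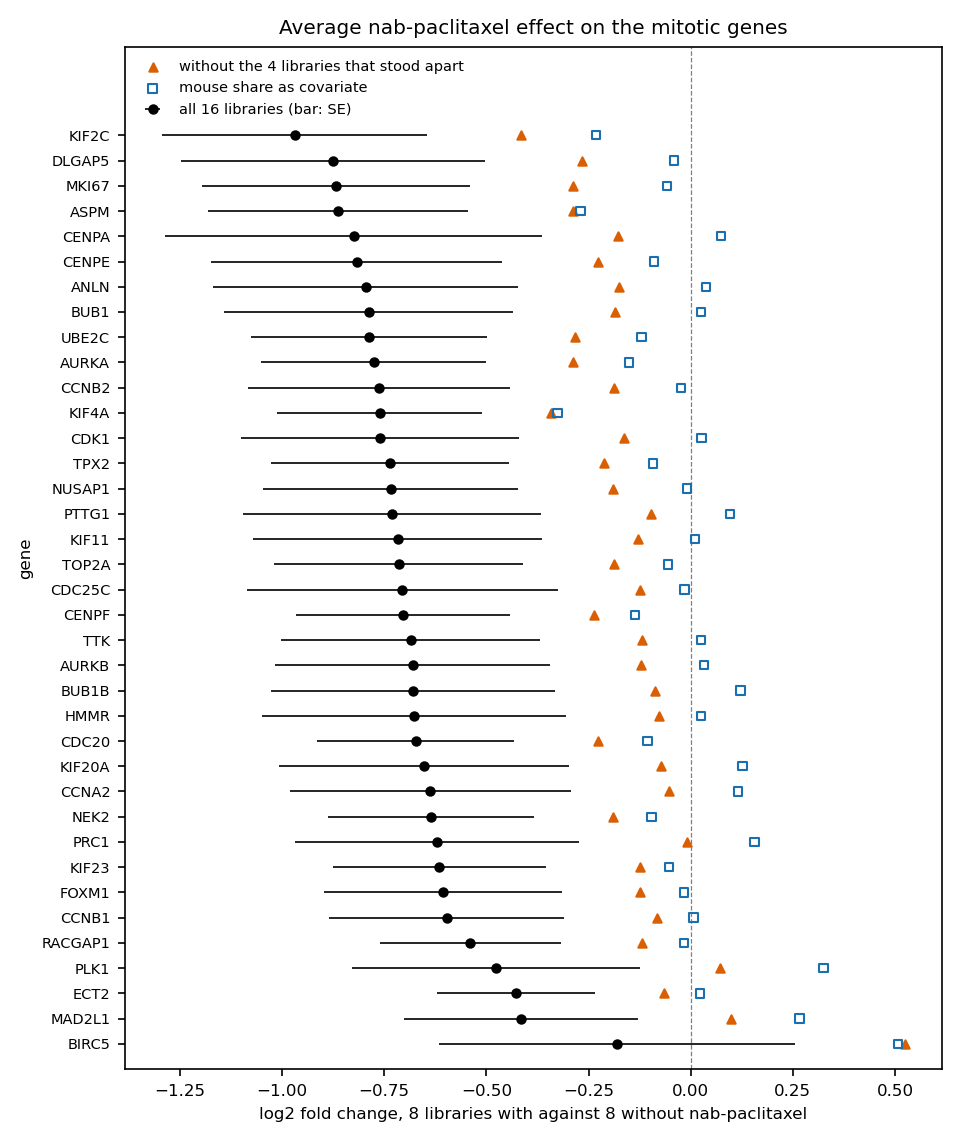
Log2 fold change of each mitotic gene (rows, ordered by value) for the 8 libraries with against the 8 without nab-paclitaxel, as circles with bars of 1 SE, beside the same value without the 4 libraries that stood apart (triangles) and with the mouse share as a covariate (squares). The circles run from -0.97 (KIF2C) to -0.18 (BIRC5), and both other sets lie nearer 0 or above it.

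Nab-paclitaxel alone against vehicle asks what the taxane did without phenelzine. All 37 members had a lower mean, with a median log2 fold change of -0.41, against 0.00 over all genes. None passed the threshold in edgeR, DESeq2 or voom, and 0 had an unadjusted p under 0.05 in edgeR, where 0.165% of all genes passed in either direction and 20.3% had such a p. Of the 18131 genes tested, DESeq2 called 1022 higher and 419 lower, and voom 335 higher and 264 lower. The values ran from -0.75 for CENPA to -0.13 for MAD2L1. MKI67 averaged 262.3 ± 153 CPM against 353 ± 107 CPM (SD, n = 4 each), which is a log2 difference of -0.43 with an SE of 0.461 (adjusted p = 0.618 in edgeR). AURKA had the lowest p of the 37, at a log2 difference of -0.65 with an SE of 0.39 (adjusted p = 0.358 in edgeR). No member separated the 4 libraries of each group, against 7.47% of all genes lower without overlap. Without nab-paclitaxel 1 and 4 (and combination 1 and 3) the median was 0.05, with 14 of 37 members negative and 0 at an unadjusted p under 0.05 (10.9% of all genes). Without nab-paclitaxel 1 alone it was -0.14, with 31 negative, and without nab-paclitaxel 2 it was -0.64. A fit that included the mouse share gave -0.07, with 31 negative.

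The combination against vehicle gave larger differences of the same sign. The median log2 fold change was -0.81, from -1.11 for MKI67 to -0.12 for BIRC5, and all 37 were negative. None passed the threshold in edgeR, DESeq2 or voom, while 0.734% of all genes passed in edgeR in either direction. DESeq2 called 1170 of the 18131 genes tested higher and 404 lower, and voom 60 higher and 51 lower. At an unadjusted p under 0.05 there were 8 members, against 22.4% of all genes. That count was 0 without combination 1 (15.7%), combination 3 (14%) or vehicle 4 (17.9%), 1 without vehicle 2 (18.4%), 4 without vehicle 3 (17.8%) and 5 without vehicle 1 (18.8%). It was 30 without combination 2 (31.6%) and 20 without combination 4 (26.4%), so it rested on single libraries. MKI67 averaged 163 ± 97.6 CPM with the combination (SD, n = 4), with edgeR adjusted p = 0.183 (SE of the log2 fold change 0.466). In 7 members (MKI67, BUB1, CCNB2, TPX2, KIF2C, TTK and NEK2) all 4 combination libraries lay below all 4 vehicle libraries, against 5.91% of all genes. Without combination 1 and 3 (and nab-paclitaxel 1 and 4) the median was -0.18, with 33 of 37 negative and 1 at an unadjusted p under 0.05 (11.5% of all genes). Without combination 1 alone the median was -0.54, and with the mouse share as a covariate -0.09, with 29 negative.

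Setting the combination beside phenelzine shows the taxane on top of phenelzine, and shares its treated libraries with the comparison above. The median log2 fold change was -0.95, from -1.35 for KIF2C to -0.19 for BIRC5, with 37 of 37 negative. In edgeR none passed, against 0.623% of all genes that passed and fell and 2.27% in either direction, and 21 had an unadjusted p under 0.05, against 23% of all genes. That count was 5 without combination 3 (15.1% of all genes), 7 without combination 1 (16.2%), 34 without combination 2 (31%) and 30 without combination 4 (26.3%). With 1 phenelzine library left out it was 12 (phenelzine 1, 18.1%), 9 (phenelzine 2, 18.3%) or 13 (phenelzine 4, 18.8%). It was 23 without phenelzine 3, where no share of all genes is given here, so that count has no background. DESeq2 called 4 (MKI67, KIF2C, KIF4A and ASPM), where 3.08% of all genes fell, and voom 0, where 41 of 18131 genes fell. KIF4A averaged 34.2 ± 16.3 CPM against 77.6 ± 21.7 CPM with phenelzine (SD, n = 4 each), which is a log2 difference of -1.18 with an SE of 0.358 (adjusted p = 0.0825 in edgeR), the lowest p of the 37. It passed without combination 4 (1.17% of all genes fell), and ASPM passed without combination 2 (1.75%). The libraries did not overlap in 9 members (AURKA, BUB1, CCNB2, CENPF, KIF2C, KIF4A, CDC20, DLGAP5 and RACGAP1), all lower with the combination, against 5.34% of all genes. Without the 4 libraries that stood apart the median was -0.33, with 36 of 37 negative, none past the threshold and 16 at an unadjusted p under 0.05 (13.9% of all genes). With the mouse share as a covariate the median turned to 0.04, with 13 negative.

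The combination against nab-paclitaxel asks whether phenelzine changed the mitotic genes further. The median was -0.41, from -0.68 for MKI67 to 0.06 for BIRC5, and 35 of 37 were negative. None passed in edgeR, DESeq2 or voom (0.00552% of all genes in edgeR), 0 had an unadjusted p under 0.05 in edgeR, against 2.94% of all genes, and no member separated the groups, against 0.844% of all genes lower without overlap. Each group held 2 of the 4 libraries that stood apart. The median was -0.14 without combination 1, -0.19 without combination 3, -0.17 without nab-paclitaxel 2 and -0.27 without nab-paclitaxel 3, against -0.78 without combination 2, -0.66 without combination 4 and -0.68 without nab-paclitaxel 1. At an unadjusted p under 0.05 there were 2 members without combination 2 (3.73% of all genes) or nab-paclitaxel 1 (5.52%) and 1 without combination 4 (4.1%). Without the 4 libraries that stood apart the median was -0.20, with 32 negative and 0 at such a p (7% of all genes), and a fit that included the mouse share gave -0.05, with 20 negative.

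Phenelzine alone against vehicle gave a small difference of the opposite sign. The median log2 fold change was 0.19, with 35 of 37 members positive, from -0.10 for PTTG1 to 0.38 for KIF4A. None passed in edgeR, DESeq2 or voom, and in edgeR 0% of all genes passed. In the same fit 0 members had an unadjusted p under 0.05, against 2.35% of all genes. That fit shares its spread with the groups given nab-paclitaxel. With only these 2 groups in the fit the median was 0.20, with 0 members past the threshold, where 1 of 16674 genes tested passed. In that fit 1 member had an unadjusted p under 0.05, a count with no share of all genes beside it here. With all 4 groups in the fit and 1 library left out, the median was lowest without vehicle 1 (0.12), followed by phenelzine 1 (0.13). It was highest without phenelzine 3 (0.27), followed by vehicle 4 (0.26). None of the 4 libraries that stood apart is in these groups, and with them left out of the fit the median was 0.19, with 2 members at an unadjusted p under 0.05 (4.92% of all genes). MKI67 averaged 404 ± 104 CPM with phenelzine (SD, n = 4), a log2 fold change of 0.19 (SE 0.46), and no member separated the groups, against 1.38% of all genes higher and 1.51% lower without overlap. The sign of the median turned with the mouse share as a covariate, to -0.16, with 33 of 37 negative. The mouse share was 9.25% to 16.1% with phenelzine and 13.6% to 37.8% with vehicle.

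The interaction term measures how far the combination departs from adding the log2 changes of each drug. Its median was -0.57, with 37 of 37 members negative, from -0.87 for MKI67 to -0.01 for BIRC5. None passed in edgeR, DESeq2 or voom, and in edgeR 0% of all genes passed and 0 members had an unadjusted p under 0.05, against 3% of all genes. The median was -0.31 without combination 1 (32 negative), -0.35 without combination 3 (33) and -0.33 without nab-paclitaxel 2 (34), against -0.90 without combination 2 and -0.86 without combination 4. At an unadjusted p under 0.05 there was 1 member without combination 4 (3.52% of all genes) and there were 2 without nab-paclitaxel 1 (4.27%). Without the 4 libraries that stood apart the median was -0.37, with 32 negative and 6 at such a p (7.27%). A fit that included the mouse share gave 0.12, with 10 of 37 negative.

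For the average effect of phenelzine over both nab-paclitaxel states the median was -0.10, with 33 of 37 negative. In edgeR 0% of all genes passed, 0 members passed in edgeR, DESeq2 or voom, and 0 had an unadjusted p under 0.05 in edgeR, against 2.2% of all genes. The sign of this median rested on single libraries. It was 0.03 without combination 1 (11 negative), 0.01 without combination 3 (17) and 0.01 without nab-paclitaxel 2 (16). It was nearer 0 without nab-paclitaxel 3 (-0.02, 24 negative), phenelzine 3 (-0.04, 30) or vehicle 4 (-0.07, 30), in voom (-0.06, 30) and with only 2 arms pooled over the other drug (-0.02, 28). It was -0.29 without combination 2, -0.23 without combination 4 and -0.24 without nab-paclitaxel 1, with 37 negative in each. Without the 4 libraries that stood apart it was -0.01, with 22 negative and 1 member at an unadjusted p under 0.05 (5.62% of all genes).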

How the data were processed

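RNA of 16 xenograft tumours, 4 mice in each of 4 groups, was measured by paired-end mRNA sequencing. The authors deposited whole-number counts per gene, 1 matrix for human and 1 for mouse genes. The submitters' processing notes name Trimmomatic (0.36), HISAT2 (2.04), Picard, StringTie, edgeR, hg38 and mm10, without saying what each was used for. The division of reads between species, the treatment of duplicates, strand and the annotation were not given in the sources used here. Human totals were 11.1 to 34.5 M counts.

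The human matrix was tested with edgeR 4.0.16 in R 4.3.3 (TMM, default filter with a minimum count of 10, 1 mean per group over 16 libraries, 12 residual degrees of freedom, quasi-likelihood F test). P-values were adjusted by Benjamini-Hochberg over 18131 genes, with a threshold of 0.05, and the genes described were read from that fit. SE is the absolute log2 fold change over the square root of F. Each library is 1 tumour, so p-values reflect spread between tumours. Log2 ratios to vehicle use a pseudocount of 0.01 CPM. DESeq2 1.42.0, voom in limma 3.58.1, other scalings and filters, fits of fewer groups, a mouse-share covariate, a replicate block and fits without single libraries were run as alternatives; scaling by library totals was added after the data were seen. The test was checked on simulated data with the same spread in every group, so the check does not cover the unequal spread seen here.

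The members and lists were chosen with earlier results of these data known. The rule for named genes took 16 members fixed by role, those past the threshold, and the 3 with the smallest average nab-paclitaxel effect; KIF2C, AURKA, CDC25C, RACGAP1 and CENPA were named after their values were seen. Symbols of the 37 members came with the list. RefSeq's table (GRCh38.p14) matched all 37 by symbol and holds no Ensembl identifiers, so the 183 genes of the other lists (other mitotic genes, replication genes, regulators of the mitotic programme, host mitotic genes and cell type markers) matched 0 rows and could not be tested. No promoter or protein sequence was used here.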

Additional observations from a re-analysis of the deposited data

Results flagged for a closer look

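Within groups of 4 libraries, 5 of 148 sets of values (37 genes in 4 groups) held a library whose gap to the nearest other, divided by the range of the group, was above Dixon's critical value for 4 samples; chance alone gives about 1 in 20 such sets. None lay in a group with nab-paclitaxel. The rule can miss low libraries that lie together, as combination 1 and 3 do, so this absence does not mean that those groups are even. MKI67 stood at 511 CPM in vehicle 4, against 316 in the next vehicle library. Phenelzine 3 was the low library for CDK1 (90.3 CPM, next 136), KIF23 (104 CPM, next 146) and DLGAP5 (134 CPM, next 168). CENPA stood at 35 CPM in phenelzine 1, against 26.9 in the next.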

How the results depend on the processing

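The direction of the average nab-paclitaxel effect was negative in 37 of 37 members with TMM, with DESeq2 size factors and with library totals. The count of members called, 1 with all libraries, was 9 with DESeq2, 2 with DESeq2 size factors in edgeR (5.73% of all genes fell), 2 with library totals (5.06%), 3 with only 2 arms pooled over the other drug (6.87%), and 0 in voom, without a low-count filter, with a mouse-share covariate or without the 4 libraries that stood apart. Of all genes tested, 963 of 18131 passed and fell in voom and 655 of 34750 without a low-count filter. With 1 library left out the count of members called ran from 0 to 15. For the combination against phenelzine the count was 4 with DESeq2 and 0 to 1 with 1 library left out; in the other 6 comparisons 0 members passed under any alternative run. With the replicate number as a block 10 members passed in the average nab-paclitaxel effect (6.34% of all genes fell) and 0 in the other comparisons. Same-numbered mice share only a number: the correlation of their deviations from group means ran from -0.43 to 0.57 over 24 pairs, with 4 above 0.1.

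The mouse share as a covariate moved the median of phenelzine against vehicle to -0.159 and of the combination against phenelzine to 0.0378; the cause was not tested. In that fit MKI67 stood at -0.149 for phenelzine against vehicle, and 18 members turned positive in the average nab-paclitaxel effect: CCNB1 0.00699, CDK1 0.0261, AURKB 0.0333, PLK1 0.325, BUB1 0.0245, BUB1B 0.122, CCNA2 0.116, BIRC5 0.507, KIF11 0.0103, KIF20A 0.127, TTK 0.0255, PRC1 0.156, MAD2L1 0.266, CENPA 0.0745, HMMR 0.0259, PTTG1 0.0962, ANLN 0.0381 and ECT2 0.0222, none past the threshold. Without the 4 libraries that stood apart PLK1 (0.0712), BIRC5 (0.524) and MAD2L1 (0.0998) turned positive in that effect. In nab-paclitaxel against vehicle 23 of 37 members were positive without these 4 libraries, among them MKI67 (0.143) and KIF4A (0.00236). KIF4A had adjusted p-values in edgeR of 0.0641 without a filter on low counts, 0.784 with the mouse share and 0.358 without the 4 libraries, and 0.082 in voom. Depth limits HMMR, CDC25C and CENPA, with 10, 17 and 20 counts in combination 1.
 The fit of only the groups compared was not run for the interaction, which needs all 4.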

Other observations

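The tumours without nab-paclitaxel also differed in their mitotic genes. Vehicle 1 had the lowest value of these 8 libraries in 18 of the 37 members (12.7% of all genes tested), phenelzine 3 in 11 (9.56%) and vehicle 3 in 7 (13.7%). Phenelzine 1 and 2 had the highest value in 14 (15.2%) and 13 (11.9%). The median member stood at 88.4% of vehicle in vehicle 1 and at 126% in phenelzine 1.

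The 37 genes lie on 15 chromosomes, with 5 each on chromosomes 1, 5 and 15. In RefSeq's GRCh38.p14, 19 of the 37 overlap another annotated gene, among them KIF20A (CDC23), PLK1 (ERN2), CCNA2 (EXOSC9), ANLN (MATCAP2), FOXM1 (ITFG2 and RHNO1), BUB1B (the read-through BUB1B-PAK6) and HMMR (HMMR-AS1). The overlap is of whole gene spans, introns included, and overlap of exons was not examined. Where exons do overlap, reads of such pairs may not be told apart, and strand was not known. PTTG1 has near-identical copies, as KIF4A does. MKI67, TOP2A, CENPA and BIRC5 are among the 18 that overlap no other gene.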
